A study of Mus musculus with 6 samples.

Results

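Gpx4, Aifm2, Coq2, Gch1, Gchfr, Pts, Spr, Qdpr and Pcbd1 encode enzymes and 1 regulator of the systems that stop chain reactions of lipid radicals in membranes. These 9 genes were chosen by symbol as the glutathione peroxidase 4, coenzyme Q and tetrahydrobiopterin guards against ferroptosis, and all 9 were found among the 27179 genes of the table. The cells were B16F10, an established mouse melanoma line with the genotype given as WT, cultured for 6 h with 0.01% ozonated olive oil (OZO, 3 libraries) or 0.01% olive oil without ozone (OLO, 3 libraries). RNA was sequenced from the 6 libraries, and the labels do not say whether they came from separate cultures, while the study describes its transcriptome replicates as independent experiments. The levels reported here are the authors' averages over all 6 libraries, both treatments together, so that no level of OZO against OLO is given and no SD belongs to a value.

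Ferroptosis is a form of cell death in which iron drives the oxidation of polyunsaturated phospholipids. Gpx4 reduces phospholipid hydroperoxides to alcohols with glutathione as the donor. Aifm2, also known as FSP1, reduces coenzyme Q at the plasma membrane, and the reduced quinone traps lipid radicals, while Coq2 attaches the isoprenoid tail in the synthesis of coenzyme Q. Tetrahydrobiopterin is a further radical trap, made from GTP by Gch1, Pts and Spr in turn and recycled by Pcbd1 and Qdpr, and Gchfr is the protein through which the product restrains Gch1.

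Gpx4 is a selenoprotein, in which a TGA codon inside the reading frame is read as selenocysteine, and that codon is shown because it marks the active site of the most abundant of the 9 genes. It lies at chr10:80054737-80054739 on the plus strand (GENCODE M21, GRCm38). With 12 coding bases on either side and the codon in capitals, the sequence is as follows.
Gpx4 coding sequence: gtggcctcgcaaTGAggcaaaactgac
The codon was number 73 of 197 in the transcript Gpx4-202 and number 129 of 253 in the longer Gpx4-201. Of the annotated coding transcripts of the gene, Gpx4-207 carried it as codon 33 of 157. These coding transcripts thus hold the same codon, and counting per gene does not tell them apart. Coding transcripts of the gene without this codon, if any, are not listed here.

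Levels are in CPM, the count scaled to 1000000 reads of the library. The typical library, as a geometric mean after scaling, held 19641946 reads, a size recovered from the value shared by the 6025 genes without a read, so that 1 CPM stood for 19.6 reads. Markers of the labelled cell type were abundant. All 7 melanocyte markers were above 100 CPM, from 109 CPM for Sox10 to 7052 CPM for Dct. Of the 4 keratinocyte markers Krt5 had no read in any library, Krt14 and Krt10 had 1 read each, and the 4 summed to 0.123 CPM. This sum and those of the other markers include the 0.5 reads added to each count, which alone give a gene without a read 0.0255 CPM, so most of the keratinocyte sum is the added value. The 2 leukocyte markers summed to 0.107 CPM, with Ptprc at 0.0702 CPM and Cd3e at 0.0367 CPM, and the 2 endothelial markers summed to 1.31 CPM. The 3 fibroblast markers were all above 1 CPM, from 1.15 CPM for Col1a2 to 3.28 CPM for Pdgfra, and their part in the levels of the 9 genes was not tested.

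Of the 9 genes, 7 averaged at least 1 CPM, whereas 11878 (43.7%) of the 27179 genes of the table did. Gpx4 averaged 122 CPM, or about 2405 reads in a library. In the coenzyme Q branch, Coq2 averaged 39.9 CPM and Aifm2 10.5 CPM, which rested on about 783 and 206 reads. In the tetrahydrobiopterin branch, Spr averaged 44.1 CPM, Pts 28.1 CPM, Qdpr 22.5 CPM and Gch1 6.35 CPM. Gch1, the entry enzyme of the pathway, thus rested on about 125 reads in a library and Qdpr, Pts and Spr on 442 or more. Gchfr averaged 0.154 CPM and Pcbd1 0.0981 CPM, the lowest averages of the 9 genes, and both belong to the same pathway.

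**Figure D1:**
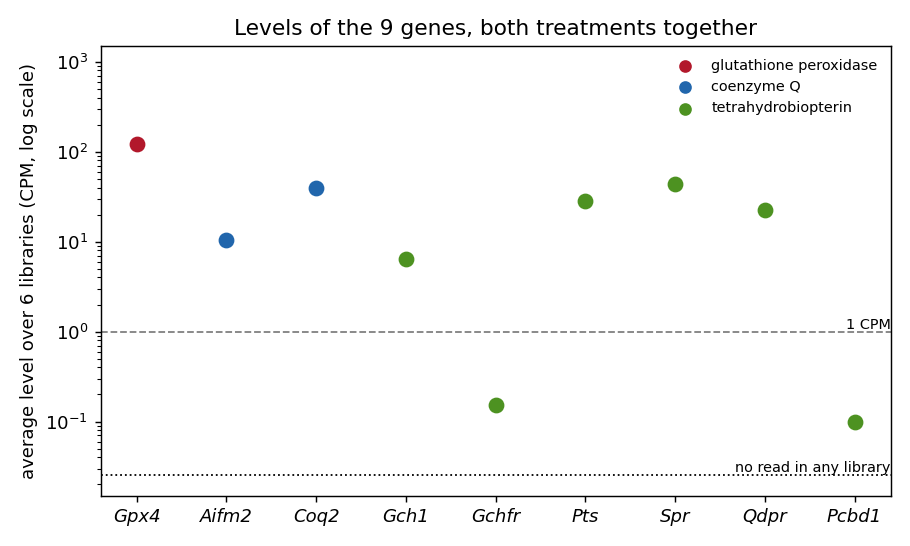
Average level of each of the 9 genes over the 6 libraries, in CPM on a log scale, with both treatments together; point colour gives the system, the dashed line 1 CPM and the dotted line the value of a gene without reads. Gchfr and Pcbd1 lie under 1 CPM, and the other 7 genes lie between 6.35 and 122 CPM; heights of different genes are not corrected for length.

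Reads rise with transcript length, so levels of different genes were compared as CPM per kilobase of the longest annotated transcript. Gpx4 was highest with 123 CPM per kilobase. Coq2 followed with 22.9, Qdpr with 16.3, Spr with 12.5 and Pts with 6.67 CPM per kilobase. Aifm2 had 3.39 and Gch1 1.81 CPM per kilobase. Gchfr, with 0.239 CPM per kilobase, and Pcbd1, with 0.124, closed the order. The spread between libraries is not known for any of these averages, so which neighbours in the order differ beyond that spread cannot be said.

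Part of this order depended on the length that was used. The longest transcript of Pts, of 4211 bases, is annotated as a retained intron, and that of Spr, of 3545 bases, as a target of nonsense-mediated decay. With the longest protein-coding transcript (1046 bases for Pts and 1230 for Spr), Pts rose from 6.67 to 26.8 and Spr from 12.5 to 35.9 CPM per kilobase, and both then stood above Coq2 and Qdpr. Over the 4 definitions of length, the level of Pts ranged from 4.60 to 47.5 and that of Spr from 12.5 to 39.1 CPM per kilobase. The range was narrower for Qdpr, from 12.6 to 18.9 CPM per kilobase. Under all 4 definitions, Gpx4 was first, Aifm2 sixth, Gch1 seventh, Gchfr eighth and Pcbd1 last. The places that changed were those of Coq2, Qdpr, Spr and Pts.

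**Figure D2:**
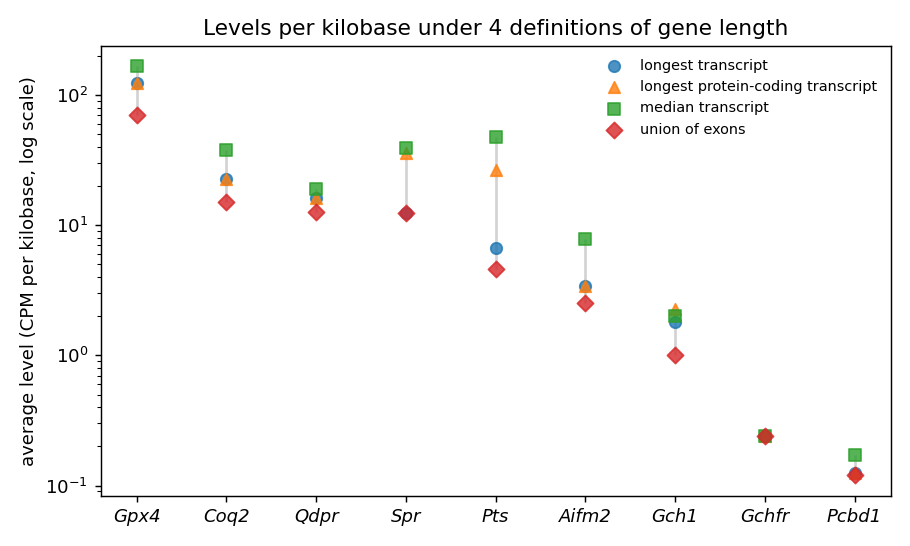
Average level of each gene in CPM per kilobase on a log scale, under 4 definitions of gene length given by the marker shape; the grey line joins the lowest and the highest. Pts and Spr move most, whereas Gpx4 stays highest and Gchfr and Pcbd1 stay lowest.

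Ratios between members were also taken per kilobase. Gpx4 was 36.3-fold above Aifm2, and 21.2-fold to 36.3-fold over the 4 definitions of length. Against Coq2, Gpx4 was 5.38-fold higher, with a range from 4.36-fold to 5.38-fold. Coq2 in turn was 6.75-fold above Aifm2, with a range from 4.85-fold to 6.75-fold. Within the tetrahydrobiopterin pathway, Gch1 was the lowest of the 3 enzymes of synthesis. Spr was 6.88-fold above it, with a range from 6.88-fold to 19.3-fold, and Pts was 3.68-fold above it, with a range from 3.68-fold to 23.5-fold. Qdpr was 9.01-fold above Gch1, with a range from 7.13-fold to 12.4-fold. Spr and Qdpr could not be ordered, since their ratio ran from 0.763 to 2.20 with the definition of length. Gch1 was 7.59-fold above Gchfr, its feedback regulator, with a range from 4.26-fold to 9.59-fold. That range reflects the definition of length alone. The low value of Gchfr includes at least 1 library without a read and the 0.5 reads added to each count, so this ratio is uncertain beyond it.

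For the 2 genes with the lowest averages, the possible read numbers could be listed. The average of a gene with few reads fixes the product, over the 6 libraries, of 1 plus 2 times the read number, and in all 6973 genes where this product was under 1000000 it was an odd whole number within 0.001. For Gchfr the product was 48807, which can be split over 6 libraries in 36 ways. In each of these ways at least 1 library had no read of Gchfr and another had at least 14, and the 6 libraries held at least 29 reads together. The same average would also arise with 5 libraries at 0 and 24403 reads in the other one, so it sets no useful upper limit on a single library. For Pcbd1 the product was 3267, with 16 possible ways. Again at least 1 library had no read, the highest had at least 5, and the 6 together held at least 13 reads, with 5 libraries at 0 and 1633 reads in the other one as the opposite extreme. The low average of each gene thus comes from at least 1 library without a read beside at least 1 with more. Which library held which number cannot be told from an average, so these reads were not assigned to OZO or OLO.

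Promoter sequence is shown for Gchfr and Pcbd1, the members with the lowest averages, as the 250 bases before the annotated start (RefSeq, GRCm38.p6), with each CpG dinucleotide in capitals. The window of Gchfr is chr2:119167538-119167787 and that of Pcbd1 is chr10:61089081-61089330, both on the plus strand.
Gchfr promoter: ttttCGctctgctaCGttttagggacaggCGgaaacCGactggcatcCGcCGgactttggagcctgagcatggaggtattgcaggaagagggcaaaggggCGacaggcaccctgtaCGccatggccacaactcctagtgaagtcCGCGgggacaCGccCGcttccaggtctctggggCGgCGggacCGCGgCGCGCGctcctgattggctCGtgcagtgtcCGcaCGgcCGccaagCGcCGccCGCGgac
Pcbd1 promoter: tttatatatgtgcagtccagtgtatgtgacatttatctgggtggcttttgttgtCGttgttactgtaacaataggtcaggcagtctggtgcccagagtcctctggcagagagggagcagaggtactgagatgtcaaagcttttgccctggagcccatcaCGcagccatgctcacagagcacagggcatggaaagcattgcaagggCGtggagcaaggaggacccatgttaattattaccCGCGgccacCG
The window of Gchfr held 27 CpG and that of Pcbd1 held 6.

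Over 300 bases, from 250 before to 50 after the start, the RefSeq windows of genes that averaged 1 CPM or more held 21 CpG in the median, against 6 for genes with reads under 1 CPM, 2 for genes without reads and 7 for all windows. Gchfr, with 31 CpG in this longer window, was above the median of genes at 1 CPM or more. Pcbd1, with 10, was below that median and above those of the other sets. Gch1 had 20 CpG, Coq2 and Qdpr 23 each, Pts 25 and Spr 16. The window of Aifm2 held 4 CpG, but it runs from 61720399 to 61720698 on chromosome 10 and so lies inside the gene as GENCODE annotates it, from 61715263, and the upstream start was not examined. That of Coq2, from 100674207 to 100674506 on chromosome 5, likewise lies inside its gene on the minus strand, which reaches 100675140. Its most upstream start was not examined. Gpx4 has 4 annotated windows, of which the upstream one held 3 CpG and the others 26, 29 and 31. The antioxidant response motif TGACNNNGC, searched on both strands, occurred in 0 of the 12 windows of the 9 genes. It occurred in 12.4% of all 32841 windows and 14.2% of those of genes at 1 CPM or more. The palindrome CACGTG also occurred in 0 of the 12 windows, against 7.15% of all windows and 10.1% of those of genes at 1 CPM or more. The windows of Gpx4 partly overlap, and with so few windows no lack of either motif is inferred. TATAAA, on either strand, occurred in 2 of the 12 windows, those of Pcbd1 and Gch1, against 13.6% of all windows, 6.91% of those of genes at 1 CPM or more, 13.4% of those of genes with reads under 1 CPM and 30.3% of those of genes without reads. Matches were counted anywhere in a window. That of Pcbd1 was on the reverse strand at the upstream end of the printed sequence, and the place of that in Gch1 was not examined. A missing match says only that these letters are not in these bases.

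Placed among the 19227 genes that had reads and an annotated length, the 9 genes covered a wide range. Per kilobase of the longest transcript, Gpx4 stood at percentile 98.1, Coq2 at 84.2, Qdpr at 78.7, Spr at 73.9 and Pts at 63.8. Aifm2 stood at percentile 55.3 and Gch1 at 49.7, both near the middle of all genes with reads. Among genes of at least 1 CPM they stood lower, Aifm2 at percentile 25.3 and Gch1 at 16.2. Gchfr stood at percentile 35.4 and Pcbd1 at 30.2. The place of Pts moved most with the length, from percentile 62.8 to 84.4 over the 4 definitions, and that of Spr ran from 73.9 to 88.4. The median of the 9 genes was 6.67 CPM per kilobase, the value of Pts, and that of all genes with reads and a length was 1.87 CPM per kilobase. With the longest protein-coding transcript these medians were 16.3 and 3.04, with the median transcript 18.9 and 3.38, and with the union of exons 4.60 and 1.47 CPM per kilobase.

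**Figure D3:**
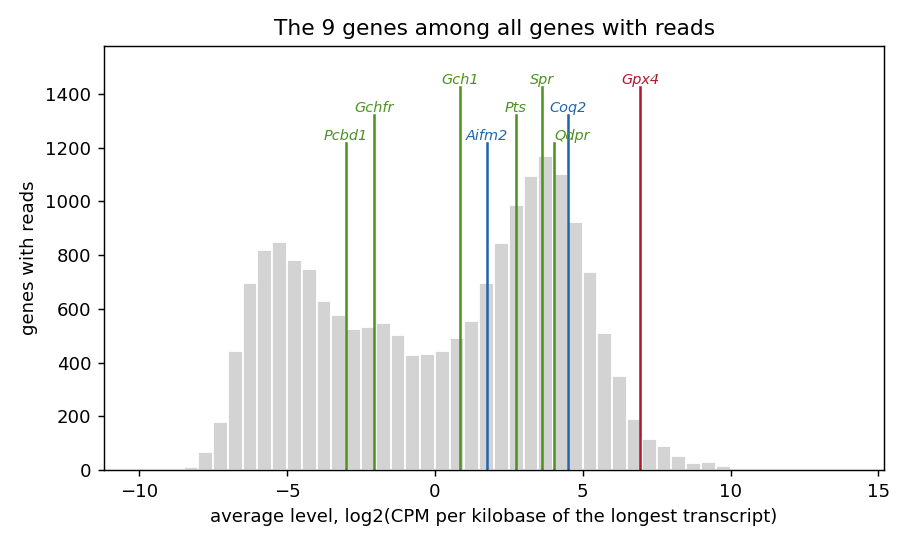
Number of genes with reads at each average level, as log2 of CPM per kilobase of the longest transcript in classes of 0.5, with the 9 genes marked and coloured by system (red, Gpx4; blue, coenzyme Q; green, tetrahydrobiopterin). Gpx4 lies in the upper tail at 6.94, and Gchfr and Pcbd1 lie among the weakly expressed genes at -2.07 and -3.01.

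Other genes of the same systems were described from 4 lists. All 12 genes of coenzyme Q synthesis and delivery averaged at least 1 CPM. Their median was 5.97 CPM per kilobase of the longest transcript, and it ran from 3.84 to 15.6 over the 4 definitions of length. By the longest transcript, the highest were Coq10b, which encodes a coenzyme Q binding protein, with 21.2 CPM per kilobase, and Coq9, which binds intermediates of the pathway, with 19.7. This order turned with the length, since Coq10b ran from 9.36 to 30.4 and Coq9 from 11.5 to 48.6 CPM per kilobase over the 4 definitions, and Coq5, a methyltransferase of the pathway, was highest with the union of exons, at 11.6. The lowest by the longest transcript were the kinase-like genes Coq8a, with 2.17, and Coq8b, with 2.32 CPM per kilobase. Coq8b ran from 1.17 to 3.28, whereas Coq8a reached 16.6 CPM per kilobase with the median transcript, where it was no longer among the lowest. Coq2 had 22.9 CPM per kilobase by the longest transcript, but Coq9 exceeded it with the median transcript, at 48.6 against 38.2, and Coq10b with the longest protein-coding one, at 25.9 against 22.9. Aifm2 lay within the range of the list by the longest transcript, at 3.39 CPM per kilobase.

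A list of 5 other genes that act on quinones or sterols also averaged at least 1 CPM throughout. Etfdh, which passes electrons to coenzyme Q in mitochondria, had 25.3 CPM per kilobase. Dhcr7, which had 18.7 CPM per kilobase, makes cholesterol from 7-dehydrocholesterol and so consumes a sterol that traps lipid radicals. Nqo1, a quinone reductase, had 6.17 CPM per kilobase. Vkorc1l1, a vitamin K epoxide reductase, had 3.01 and Dhodh, the mitochondrial enzyme of pyrimidine synthesis that reduces coenzyme Q, 2.69 CPM per kilobase. These values are by the longest transcript, and with the median transcript Dhcr7 had 72.8, Etfdh 51.5, Vkorc1l1 22.3 and Dhodh 11.97 CPM per kilobase, so that Nqo1, still at 6.17, was then the lowest of the 5.

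Of the 7 glutathione peroxidases other than Gpx4, 2 averaged at least 1 CPM. These were Gpx1, the general cytosolic enzyme, with 75.5 CPM per kilobase, and Gpx8, a membrane protein of the endoplasmic reticulum, with 60.5. Gpx4 was 1.63-fold above Gpx1, with a range from 1.26-fold to 1.74-fold over the definitions of length, and 2.03-fold above Gpx8, with a range from 1.18-fold to 2.39-fold. Gpx7 had 1 read in all 6 libraries together and Gpx6 between 3 and 13, while Gpx5 had none, a count that allows up to 3 reads over the libraries by counting error alone.

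Of the 7 users of tetrahydrobiopterin examined here, 1 averaged at least 1 CPM. Tph2, a tryptophan hydroxylase that needs the cofactor, had 3.15 CPM per kilobase and averaged 8.27 CPM. The other 6 users were under 1 CPM. Nos3, the endothelial nitric oxide synthase, had 0.0929 CPM per kilobase. Nos2, the inducible nitric oxide synthase, had 1 read in all, and Agmo, the alkylglycerol monooxygenase that cleaves ether lipids, had between 6 and 16 reads over the 6 libraries.

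**Figure D4:**
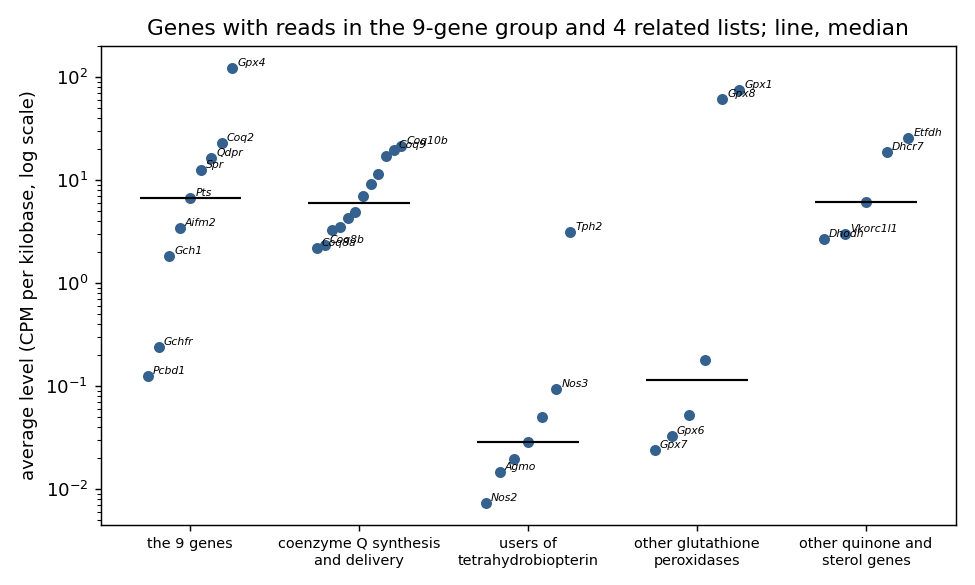
Average level of the genes with reads in the 9-gene group and in 4 lists of related genes, in CPM per kilobase of the longest transcript on a log scale; horizontal lines are medians, and in the related lists the 2 highest and the 2 lowest genes are named. Levels of the users of tetrahydrobiopterin have a median of 0.0284 CPM per kilobase, against 6.67 for the 9 genes; over the 4 definitions of length the former runs from 0.0234 to 0.0482 and the latter from 4.60 to 18.9.

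By position, 3 of the 9 genes lie on chromosome 10 of GRCm38, all on the plus strand. Pcbd1 (ENSMUSG00000020098) spans 61089331 to 61094324 and Aifm2 (ENSMUSG00000020085) 61715263 to 61739260, with 620938 bases between them. Pcbd1 averaged 0.124 and Aifm2 3.39 CPM per kilobase, and the genes between them were not examined. Gpx4 (ENSMUSG00000075706) spans 80047166 to 80056439. Chromosome 5 holds Qdpr (ENSMUSG00000015806), from 45434021 to 45450236, and Coq2 (ENSMUSG00000029319), from 100654723 to 100675140, both on the minus strand. Gchfr (ENSMUSG00000046814) lies on chromosome 2 from 119167773 to 119172390, Spr (ENSMUSG00000033735) on chromosome 6 from 85130176 to 85137766, Pts (ENSMUSG00000032067) on chromosome 9 from 50521617 to 50528724 and Gch1 (ENSMUSG00000037580) on chromosome 14 from 47153895 to 47189413.

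Other annotated genes overlap 4 members. The libraries were made with a directional kit, but the strand setting of the counting is not given in the sources used here, and any share of reads from these genes was not tested. Aifm2 overlaps Macroh2a2 on the opposite strand over 596 bases, and Macroh2a2 averaged 0.235 CPM, far under the 10.5 CPM of Aifm2. Antisense genes overlap Coq2 over 4282 bases and Qdpr over 15750 bases, and 2 processed pseudogenes lie within Gch1. Pseudogenes of Gpx4 and of Spr are annotated on chromosomes 10 and 6. No level of the antisense genes or pseudogenes was analysed here, and reads of near-identical copies could be split between a gene and its pseudogene.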

How the data were processed

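RNA of 6 B16F10 libraries (3 OZO, 3 OLO, 6 h) was analysed by the authors. According to the methods and the submitters' processing notes, reads were aligned to mm10 with HISAT2 (version 2.1.0), counted per gene with featureCounts (version 2.1.1) and passed to limma-voom (version 3.58.1). The deposited average expression of each gene is in log2 CPM, which the authors' voom step computes from counts plus 0.5 and averages over the libraries. Other value columns, 5 in number, hold the authors' own comparison of OZO with OLO (log2 fold change, moderated statistic, p-value, adjusted p-value and log-odds) and were not used. No library was analysed singly here and no test was made, although the plan named tests for counts and for normalized values.

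CPM was taken as 2 to the power of the average, which is a geometric mean. The library size followed from the lowest shared value. A simulation built with the same formula checked only the arithmetic of this step, not whether the formula holds for these libraries. Intervals and floors concern counting error only. Lengths and positions came from GENCODE M21 (GRCm38, the build mm10 names), in which 23906 of 24126 Ensembl identifiers were found, and promoters came from RefSeq (GRCm38.p6), found for 9 of 9 members. Genes named were the 9 members and, from each related list, the 2 highest and 2 lowest with reads per kilobase. Markers named beside the marker check, overlapping genes, Coq5, Gpx5, Nqo1 and Pcbd2 were chosen after their values were seen. The members and lists were chosen with earlier results of these data known, and a few genes of the lists are not reported here. Alternatives were other definitions of length and other sets of genes for the percentiles. Python 3.11.15, numpy 2.4.6, pandas 2.3.3 and matplotlib 3.10.9 were used.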

Additional observations from a re-analysis of the deposited data

How the results depend on the processing

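No paired analysis was possible because only averages over all 6 libraries were used. A second count model, a fit without a filter, another pseudocount and leaving out each library were therefore not run. The order of the 9 genes per kilobase was the same with the union of all exons, where 9 genes kept their place, and changed with other lengths. With the median transcript length, with no division by length and with the longest protein-coding transcript (a definition added after the lengths had been seen), 5 genes kept their place each time, and Coq2, Pts, Spr and Qdpr changed theirs. The alternatives differ only in the length by which the same level is divided. The median percentile of the 9 genes was 63.8 among genes with reads, 70.9 among all genes with a length and 56.2 among genes of at least 1 CPM, where Gchfr and Pcbd1 were left out. These percentiles are by the longest transcript, and the first is the place of Pts, whose longest transcript is a retained intron. Among genes with reads, the median was 75.5 with the longest protein-coding transcript (among genes that have one), 67.6 with the median transcript and 62.8 with the union of exons, lengths added after the values were seen. The averages of Gchfr and Pcbd1 each include at least 1 library without a read, and the added 0.5 reads enter them there. The median level of the 9 genes ran from 4.60 to 18.9 CPM per kilobase over the definitions of length. The averages used here carry no SD, and the authors' comparison of the treatments was not used, so no difference is set here against the spread between libraries.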

Other observations

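Pcbd2, the paralog of Pcbd1 whose product also has pterin dehydratase activity, averaged 4.55 CPM, or 8.33 CPM per kilobase of its longest transcript, at percentile 67.2 of the genes with reads. This was 67.0-fold above Pcbd1 per kilobase, a ratio whose lower term includes at least 1 library without a read and the 0.5 reads added to each count. Pcbd2 was looked up after the low value of Pcbd1 had been seen.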
